A study of Mus musculus with 16 samples.

Results

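Transcripts of 9 genes that set the shape and turnover of mitochondria were followed in mouse gastrocnemius, a mixed, mainly fast-fibred calf muscle. The genes are Mfn1, Mfn2 and Opa1 for fusion, Dnm1l, Mff and Fis1 for fission, and Bnip3, Bnip3l and Pink1 for mitophagy. They were chosen by name, and all 9 were found among the 23440 genes of the deposited table. All 9 reached 1 RPKM in at least 4 of the 16 libraries and so stood among the 10171 genes tested (RPKM divides a gene's reads by its length and by the total of the library).

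Mitochondria in muscle form a network that is joined by fusion and divided by fission, and damaged stretches are removed by mitophagy, the autophagy of mitochondria. Mfn1 and Mfn2 are GTPases that tether and fuse outer membranes, and Opa1 fuses inner membranes and holds cristae in shape. Dnm1l, also known as Drp1, is a cytosolic GTPase that constricts the organelle once adaptors such as Mff and Fis1 bring it to the outer membrane. Bnip3 and Bnip3l (NIX) are outer membrane receptors that bind LC3-family proteins of the autophagosome, and Pink1 is a kinase that builds up on damaged mitochondria and activates the ubiquitin ligase parkin. Endurance training is known to raise the mitochondrial content of muscle.

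There were 4 groups of 4 mice: Il13-/- (KO) trained, KO untrained, wild-type (WT) trained and WT untrained. All were male C57Bl6/J mice aged 20 weeks, training was 5 weeks of treadmill running each day, and each library came from a mouse with its own identifier. The KO mice lack interleukin-13, a type 2 cytokine, in the whole body as far as the labels say; how the allele was made and whether KO and WT mice were littermates is not given. Fitting all groups together allows 2 questions: whether these transcripts differ after training in each genotype, and whether that response differs when Il13 is missing.

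Library totals, recovered from the steps between low RPKM values, ran from 16307025 to 20074677 reads. Il13 itself had 0 reads in all 8 WT libraries and from 0 to 2 reads in KO libraries, so its reads cannot check the genotype labels. The genes of the table held 76.7% ± 1.27 of these totals in KO trained, 79.9% ± 1.95 in KO untrained, 78.6% ± 3.51 in WT trained and 82.3% ± 1.57 in WT untrained libraries (SD, n = 4 each). WT trained replicate 1 stood apart from its group, at 83.5% against 76.0% to 78.8% in the other 3, and differences in the 9 genes that it moves by over 1.5 times, or whose call it ends or makes, are given with and without it. In bulk muscle, fewer cells of a type and less RNA per cell cannot be told apart.

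The 250 bases before the start of 4 of the genes are printed because Mfn1 and Opa1 separated trained from untrained WT mice, Dnm1l had the largest training difference, and Bnip3 held 1 of the motifs searched. They come from RefSeq on GRCm38.p6, 5′ to 3′ on the gene's strand, for the start site that matches the deposited gene region, and capitals mark a motif match. The windows are chr3:32529232-32529481 (+) for Mfn1, chr16:29579084-29579333 (+) for Opa1, chr16:16359032-16359281 (-) for Dnm1l and chr7:138909507-138909756 (-) for Bnip3.
Mfn1: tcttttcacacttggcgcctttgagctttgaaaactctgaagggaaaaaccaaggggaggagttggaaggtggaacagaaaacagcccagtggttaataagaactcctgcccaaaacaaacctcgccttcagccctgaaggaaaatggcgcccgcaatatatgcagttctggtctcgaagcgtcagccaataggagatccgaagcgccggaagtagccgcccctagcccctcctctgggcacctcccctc
Opa1: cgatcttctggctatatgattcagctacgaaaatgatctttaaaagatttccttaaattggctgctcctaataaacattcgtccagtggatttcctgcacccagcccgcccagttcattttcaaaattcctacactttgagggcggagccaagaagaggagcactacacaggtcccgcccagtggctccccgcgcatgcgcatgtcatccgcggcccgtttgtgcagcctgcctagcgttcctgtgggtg
Dnm1l: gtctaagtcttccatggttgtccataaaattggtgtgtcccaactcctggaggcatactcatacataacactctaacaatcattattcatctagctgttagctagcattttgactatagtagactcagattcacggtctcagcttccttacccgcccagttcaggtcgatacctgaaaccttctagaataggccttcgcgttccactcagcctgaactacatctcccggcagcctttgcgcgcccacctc
Bnip3: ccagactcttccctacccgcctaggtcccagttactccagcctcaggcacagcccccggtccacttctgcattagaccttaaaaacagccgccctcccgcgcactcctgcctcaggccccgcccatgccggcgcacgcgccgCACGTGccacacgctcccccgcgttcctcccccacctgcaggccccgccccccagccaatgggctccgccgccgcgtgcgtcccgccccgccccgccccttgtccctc
The Bnip3 window was rich in G and C, at 72.4% of bases, against 53.6% for Mfn1, 52.0% for Opa1 and 47.6% for Dnm1l. RefSeq windows were found for 8 of the 9 genes, 13 windows in all, and 3 motifs were searched on both strands. The hypoxia response core ACGTG was found in the Bnip3 window, 107 bases before the start and within the palindrome CACGTG so that both strands match, and in 1 of the Mfn2 windows. The same core stood in 16.6% of the 32851 promoter windows of that table. The FoxO core GTAAACA was in 0 of the 13 windows and in 3.17% of all. The estrogen-related receptor site TNAAGGTCA was in 0 of the 13 windows and in 1.14% of all.

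In mean level over the 16 libraries, Pink1 was the most abundant of the 9 at 280.2 RPKM, above 98.6% of tested genes. Mfn2 followed at 139.6 RPKM, Bnip3 at 106.6 RPKM and Fis1 at 56.3 RPKM. Mff at 43.3 RPKM and Mfn1 at 42.9 RPKM were neighbours whose libraries overlapped. Opa1 at 19.7 RPKM, Bnip3l at 14.3 RPKM and Dnm1l at 13.7 RPKM were the least abundant, and Bnip3l and Dnm1l overlapped over libraries. Within each related pair, Mfn2 therefore stood above Mfn1 and Bnip3 above Bnip3l in every library. The Bnip3 to Bnip3l ratio of RPKM averaged 7.64 ± 0.467 in KO trained, 7.30 ± 0.751 in KO untrained, 7.45 ± 0.634 in WT trained and 7.54 ± 0.693 in WT untrained mice (SD, n = 4 each).

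The 9 transcripts differed in how tightly they were held. The highest library was 1.14 times the lowest for Mff and 1.56 times the lowest for Fis1, with the other 7 genes between. The within-group SD of log2 level was 0.050 for Mff, smaller than in all but 0.787% of tested genes, and 0.060 for Opa1 and 0.071 for Mfn1. Counting error alone gives an SD of 0.038 for Mff at its depth of 1306 to 1683 reads. Fis1 was the most variable, with an SD of 0.169, larger than in 85.7% of the 615 genes of like level (within 1.5 times its mean). Against genes of like level, Pink1 was more variable than 64.6%, Bnip3 than 58.2%, Dnm1l than 51.5%, Bnip3l than 30.9%, Mfn2 than 20.0%, Mfn1 than 15.4%, Opa1 than 5.14% and Mff than 2.87%.

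**Figure D1:**
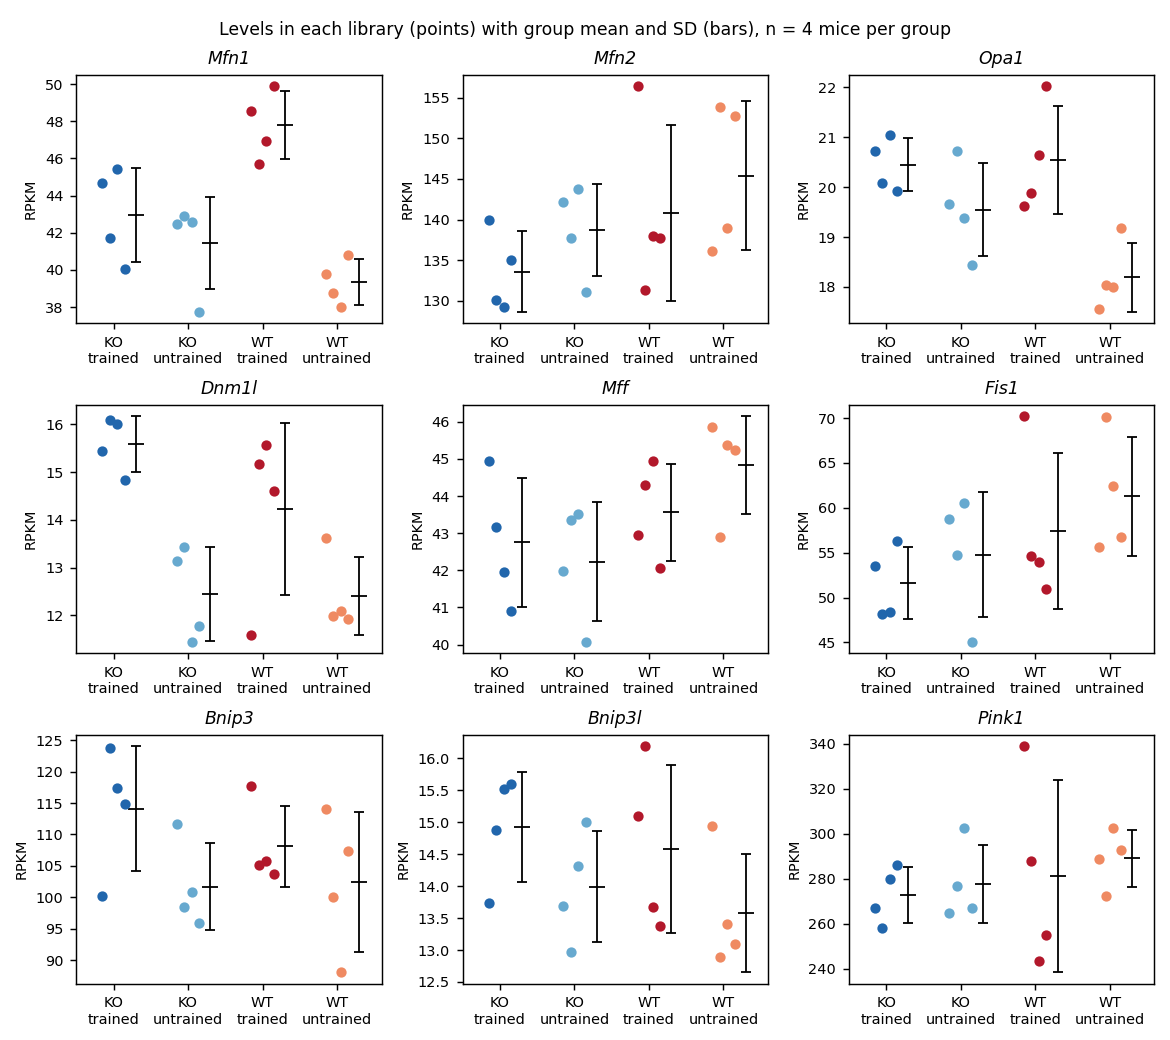
RPKM of the 9 genes in each of the 16 libraries, 1 panel per gene, with points for mice and bars for group mean and SD (n = 4); vertical axes do not start at 0. The 4 trained WT mice lie above the 4 untrained WT mice for Mfn1 and Opa1, and the 4 trained KO mice lie above the 4 untrained KO mice for Dnm1l.

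None of the 9 genes passed an adjusted p of 0.05 (limma, Benjamini-Hochberg over all tested genes) for training in KO, for training in WT or for the difference of these responses. At an unadjusted p under 0.05 the counts were 1 for training in KO, 3 for training in WT and 1 for the difference. Over all tested genes, 0% passed for training in KO (0 genes, with 13.7% at an unadjusted p under 0.05), 0.187% in WT (19 genes, with 11.8%) and 0% for the difference (0 genes, with 8.40%). The 0 for training in KO became 106 genes without WT trained replicate 1 and 97 genes with library weights. For training over both genotypes 0.777% of tested genes passed (79 genes), 0 of the 9 among them. There 4 of the 9 had an unadjusted p under 0.05, against 18.0% of tested genes. By voom on the recovered reads, 0 of the 9 passed for training in KO, 1 in WT, 0 for the difference and 2 over both genotypes. Scaling changed the balance of all genes called: 13 higher and 6 lower for training in WT became 357 higher and 38 lower when libraries were rescaled to the same sum over listed genes. For training over both genotypes, 33 higher and 46 lower became 436 higher and 48 lower with that rescaling, 151 higher of 252 with quantile normalization and 151 higher of 269 by voom.

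Mfn1, the outer membrane fusion GTPase, gave the smallest p of the 9 for training in WT. It stood at 48.5, 45.7, 46.9 and 49.9 RPKM in trained WT mice, against 39.77, 38.75, 38.02 and 40.83 RPKM in untrained WT mice. The groups did not overlap, and the lowest trained mouse was above the highest untrained one. The log2 difference was 0.28 (SE 0.057, 95% interval 0.16 to 0.40, 1.21-fold), with an adjusted p of 0.0508 by limma, rank 26 of the tested genes, just short of the threshold. The two-sided exact permutation p was 0.0286, the smallest that 4 against 4 allow. Groups of 4 did not overlap in the higher direction for 3.76% of tested genes and in the lower direction for 2.62%.

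The WT call for Mfn1 turned on the settings. It passed in 7 of the 11 other settings that keep every library, with limma adjusted p from 0.00569 to 0.0926, and the difference stayed between 0.27 and 0.37. Leaving out 1 library gave adjusted p from 0.0271 to 0.19, and Mfn1 passed without WT trained replicate 1 (adjusted p = 0.0271), KO untrained replicate 3 (0.0463), KO untrained replicate 4 (0.0319) or KO trained replicate 3 (0.0450), all by limma. Over all tested genes, 19 passed for training in WT, 272 without WT trained replicate 1, and 0 without WT untrained replicate 3, WT trained replicate 3 or WT trained replicate 4. Over both genotypes Mfn1 was at 0.17 (limma adjusted p = 0.0601), and at 0.16 (limma adjusted p = 0.0236) without WT trained replicate 1, where 1044 genes passed against 79.

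In KO mice Mfn1 stood at 44.7, 41.7, 45.5 and 40.1 RPKM after training, against 42.5, 42.9, 42.6 and 37.7 RPKM in untrained KO mice. These groups overlapped, and the log2 difference was 0.05 (95% interval -0.07 to 0.17, limma adjusted p = 0.689). The response in KO minus that in WT was -0.23 (SE 0.081, 95% interval -0.40 to -0.06), with an unadjusted limma p of 0.0125 and an adjusted p of 0.529, so a difference of responses was not called. Between trained mice, Mfn1 averaged 43.0 ± 2.52 RPKM in KO and 47.8 ± 1.83 RPKM in WT (SD, n = 4 each). The 4 trained KO mice lay below the 4 trained WT mice, with a log2 difference of -0.15 (limma adjusted p = 0.273).

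Mfn2, the second mitofusin and also a tether between mitochondria and the endoplasmic reticulum, overlapped between trained and untrained mice in both genotypes. It stood at 156, 131, 138 and 138 RPKM in trained WT mice, against 136, 154, 139 and 153 RPKM in untrained WT mice. In KO mice the values were 139.99, 130.2, 129.3 and 135.1 RPKM after training and 142.2, 137.7, 143.7 and 131.1 RPKM without it. The ranges of trained and untrained mice covered much the same levels. The log2 difference with training was -0.05 in KO (95% interval -0.18 to 0.08) and -0.05 in WT (95% interval -0.18 to 0.08), with adjusted p of 0.712 and 0.823 by limma. Without WT trained replicate 1, the highest of the trained WT mice, the WT difference was -0.10 (limma adjusted p = 0.361) and that over both genotypes -0.08, against -0.05. The ratio of Mfn1 to Mfn2 RPKM was 0.322 ± 0.023 in KO trained, 0.299 ± 0.0098 in KO untrained, 0.340 ± 0.022 in WT trained and 0.271 ± 0.017 in WT untrained mice (SD, n = 4 each).

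Opa1, the fusion GTPase of the inner membrane, stood at 19.63, 19.87, 20.64 and 22.03 RPKM in trained WT mice, against 17.6, 18.0, 18.0 and 19.2 RPKM in untrained WT mice. As for Mfn1, the trained WT mice all lay above the untrained ones. The log2 difference was 0.17 (SE 0.055, 1.13-fold), with a limma adjusted p of 0.187 and an exact permutation p of 0.0286. Over both genotypes it was 0.12 (limma adjusted p = 0.130), and 0.13 (limma adjusted p = 0.0418) without WT trained replicate 1. In KO mice Opa1 stood at 20.7, 20.1, 21.1 and 19.9 RPKM after training, against 19.7, 20.7, 19.4 and 18.4 RPKM without it. There the groups overlapped, and the difference was 0.07 (95% interval -0.05 to 0.18, limma adjusted p = 0.590). Untrained KO mice averaged 19.6 ± 0.935 RPKM and untrained WT mice 18.2 ± 0.691 RPKM (SD, n = 4 each), a log2 difference of 0.10 with a limma adjusted p of 0.780.

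**Figure D2:**
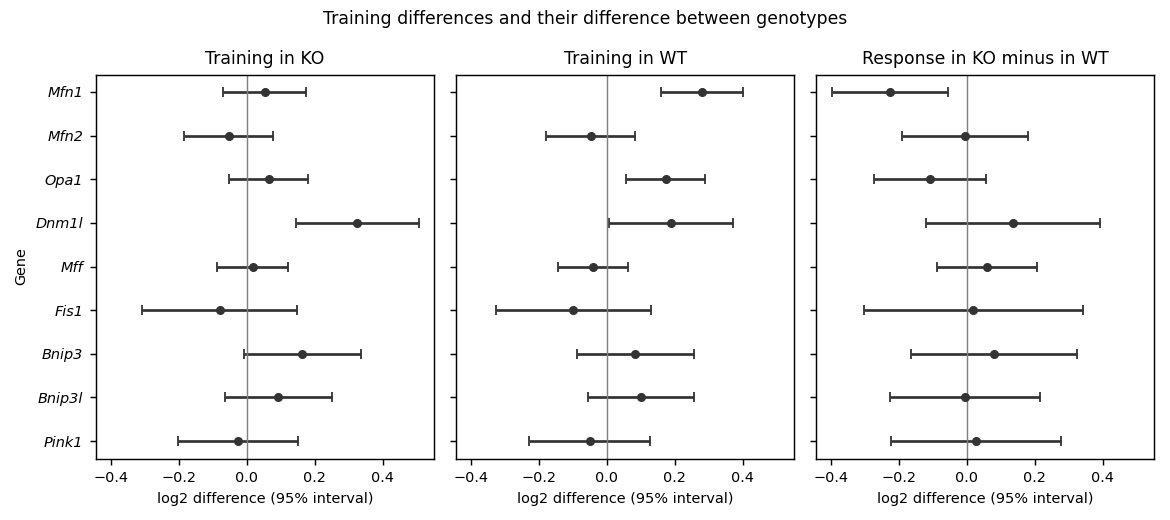
log2 difference in RPKM with training in KO, with training in WT, and the KO response minus the WT response, for the 9 genes; points are limma estimates and bars 95% intervals not adjusted for the number of genes. The interval lies above 0 for Dnm1l in KO, for Mfn1, Opa1 and Dnm1l in WT, and below 0 for Mfn1 in the difference of responses.

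Dnm1l, the GTPase that divides mitochondria, gave the smallest p of the 9 for training in KO. It stood at 15.45, 16.08, 16.002 and 14.82 RPKM in trained KO mice, against 13.1, 13.4, 11.4 and 11.8 RPKM in untrained KO mice. The trained KO mice all lay above the untrained ones, and the log2 difference was 0.33 (SE 0.086, 95% interval 0.14 to 0.51, 1.25-fold). The limma adjusted p was 0.176, rank 86, and the exact permutation p was 0.0286. Groups of 4 did not overlap in the higher direction for 4.00% of tested genes in KO, and in the lower direction for 5.43%.

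In WT mice Dnm1l stood at 11.6, 15.2, 15.6 and 14.6 RPKM after training, against 13.63, 11.99, 12.09 and 11.93 RPKM in untrained mice. Trained replicate 1 was below every untrained mouse and the other 3 trained mice were above all of them. The difference was 0.19 (SE 0.086, limma adjusted p = 0.393) over all libraries, and 0.28 (limma adjusted p = 0.0422) without WT trained replicate 1. Over both genotypes it was 0.26 (SE 0.061, 1.20-fold, limma adjusted p = 0.0559), and 0.30 (limma adjusted p = 0.00229) without that library. Leaving it out also brought the adjusted p of Dnm1l in KO to 0.0476 at the same difference, in a fit that called 106 genes for training in KO against 0. The response in KO minus that in WT was 0.14 (95% interval -0.12 to 0.39, limma adjusted p = 0.776), and 0.04 without WT trained replicate 1.

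Dnm1l also moved with the share of reads that fall in listed genes. With that share as a covariate, chosen after seeing the data, the Dnm1l difference was 0.21 in KO (limma adjusted p = 0.857), 0.06 in WT (0.750) and 0.14 over both genotypes (0.482). For Mfn1 in WT the same covariate gave 0.30 (limma adjusted p = 0.0424). The part that this share has in the training differences was not tested further.

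For both adaptors that recruit Dnm1l, trained and untrained mice overlapped. Mff stood at 45.0, 43.2, 42.0 and 40.9 RPKM in trained KO mice, against 42.0, 43.4, 43.5 and 40.1 RPKM in untrained KO mice. In WT it stood at 42.9, 44.3, 45.0 and 42.1 RPKM after training, against 45.9, 42.9, 45.4 and 45.2 RPKM without it. These are among the tightest groups in the table. The log2 difference of Mff with training was 0.02 in KO (95% interval -0.09 to 0.12) and -0.04 in WT (95% interval -0.15 to 0.06). Fis1, the other adaptor, stood at 53.6, 48.2, 48.4 and 56.3 RPKM in trained KO mice, against 58.8, 54.7, 60.6 and 45.0 RPKM in untrained KO mice. In WT, Fis1 stood at 70.2, 54.6, 53.9 and 51.0 RPKM after training, against 55.7, 70.1, 62.5 and 56.8 RPKM without it. A single high trained WT mouse, replicate 1, set the top of that group, and all groups of Fis1 overlapped. Its intervals were the widest of the 9: the difference was -0.08 in KO (95% interval -0.31 to 0.15) and -0.10 in WT (95% interval -0.33 to 0.13). Without WT trained replicate 1, Fis1 was at -0.20 in WT (limma adjusted p = 0.292) and at -0.14 over both genotypes, against -0.09 with it.

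Among the mitophagy genes, Bnip3 stood at 100.3, 123.7, 117.4 and 114.9 RPKM in trained KO mice, against 111.6, 98.4, 100.9 and 95.99 RPKM in untrained KO mice. Trained KO replicate 1 lay within the untrained range and the other 3 trained mice lay above it. The log2 difference was 0.16 (SE 0.082, 95% interval -0.01 to 0.34, limma adjusted p = 0.388). In WT, Bnip3 stood at 117.7, 105.2, 105.8 and 103.8 RPKM after training, against 113.995, 100.1, 88.1 and 107.4 RPKM without it. These overlapped, with a difference of 0.08 (95% interval -0.09 to 0.26, limma adjusted p = 0.745), and of 0.04 without WT trained replicate 1. Over both genotypes Bnip3 had an unadjusted limma p of 0.0477 and an adjusted p of 0.272.

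Bnip3l, its close relative, stood at 13.7, 14.9, 15.5 and 15.6 RPKM in trained KO mice, against 13.68, 12.97, 14.32 and 15.0003 RPKM in untrained KO mice. In WT it stood at 15.1, 16.2, 13.7 and 13.4 RPKM after training, against 14.9, 12.9, 13.4 and 13.1 RPKM without it. Both comparisons overlapped, with log2 differences of 0.09 in KO (95% interval -0.06 to 0.25) and 0.10 in WT (95% interval -0.06 to 0.26). Pink1, the kinase upstream of parkin, stood at 267, 258, 279.9 and 286 RPKM in trained KO mice, against 265, 277, 302 and 267 RPKM in untrained KO mice. In WT, Pink1 stood at 339, 288, 243 and 255 RPKM after training, against 289, 272, 303 and 293 RPKM without it. Trained WT replicate 1 was the highest of all 16 libraries and trained WT replicate 3 the lowest, so the trained WT group enclosed every other group. The Pink1 difference was -0.02 in KO (95% interval -0.20 to 0.15) and -0.05 in WT (95% interval -0.23 to 0.13). Without WT trained replicate 1 it was -0.14 in WT (limma adjusted p = 0.245), and over both genotypes -0.08, against -0.04 with it.

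**Figure D3:**
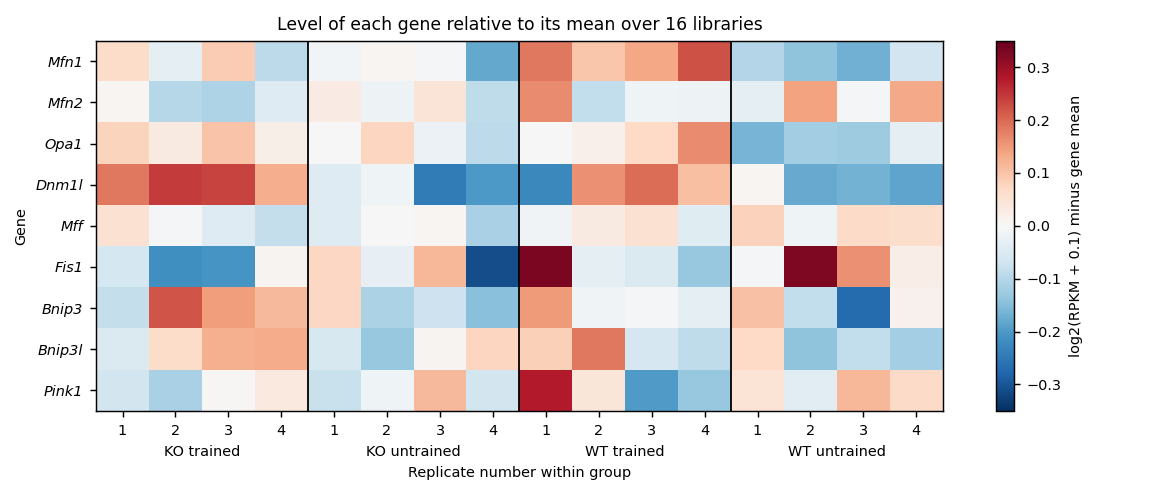
log2(RPKM + 0.1) of each gene minus its mean over the 16 libraries, by group and replicate number; red is above the gene's mean and blue below. WT trained replicate 1 combines low Dnm1l (11.6 RPKM) with high Fis1 (70.2 RPKM) and high Pink1 (339 RPKM).

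Between genotypes the 9 transcripts gave no call. In untrained mice, KO against WT, log2 differences ran from -0.16 (Fis1) to 0.10 (Opa1), 0 of the 9 had an unadjusted limma p under 0.05, and 0.0492% of all tested genes passed (5 genes). None of the 9 had groups that did not overlap, where 1.58% of tested genes did in the higher direction and 2.37% in the lower. In trained mice the differences ran from -0.15 (Mfn1) to 0.14 (Dnm1l), 1 of the 9, Mfn1, had an unadjusted limma p under 0.05, and 0.0885% of tested genes passed (9 genes). Mfn1 was also the only one of the 9 whose trained KO and WT groups did not overlap, in the lower direction. Such genes made up 5.86% of those tested in the lower direction and 2.63% in the higher. Without WT trained replicate 1, the trained KO against WT difference was -0.02 for Mfn2 (-0.07 with it), -0.03 for Opa1 (-0.01 with it), 0.04 for Dnm1l (0.14 with it), -0.05 for Fis1 (-0.15 with it), 0.12 for Bnip3 (0.08 with it) and 0.06 for Pink1 (-0.03 with it). For the KO response minus the WT response it was 0.05 for Mfn2 (-0.01 with it), 0.01 for Bnip3l (-0.01 with it), and 0.12 each for Fis1, Bnip3 and Pink1 (0.02, 0.08 and 0.03 with it). None of these passed by limma with or without that library. The trained and untrained groups serve in the training contrasts too, so these are not separate evidence.

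The genes were also compared with each other, library by library, after the group means were removed. Over the 36 pairs, 0 passed adjustment by a permutation test within groups (adjusted p = 0.0919 at best for Pearson's r). The highest was Mfn2 with Fis1 (r = 0.767, rho = 0.653; r = 0.588 without the 2 libraries farthest from the median of Mfn2). Next came Opa1 with Bnip3l, in opposite directions (r = -0.736, rho = -0.777; r = -0.63 without 2 libraries), and Mfn1 with Opa1 (r = 0.711, rho = 0.794; r = 0.630 without 2 libraries). All 3 had a permutation adjusted p of 0.0919 for r. With group means kept, 2 pairs passed, Mfn1 with Opa1 (r = 0.794, permutation adjusted p = 0.00612) and Mfn2 with Fis1 (r = 0.828, permutation adjusted p = 0.0036). There libraries were permuted across groups, so group differences that 2 genes share enter both r and p.

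Fis1, Mfn2 and Dnm1l followed the share of a library's reads that fall in listed genes, over 16 libraries and 9 relations tested. For Fis1, r was 0.848 (rho = 0.918, permutation p = 1e-05, the smallest that 100000 permutations give, adjusted p = 9e-05), and 0.789 without the 2 libraries farthest from the median share. For Mfn2, r was 0.844 (rho = 0.856, permutation adjusted p = 0.000225), and 0.779 without 2 libraries. For Dnm1l, r was -0.790 (rho = -0.735, permutation adjusted p = 0.00213), and -0.732 without 2 libraries. All p values here came from permuting libraries across the groups, whose mean shares differed, so group differences enter them. Within groups, the deviations from group means gave r of 0.878 for Fis1, 0.846 for Mfn2 and -0.631 for Dnm1l. The r within groups were not tested. Opa1 had r of -0.577 (rho = -0.629, permutation adjusted p = 0.0451) over all libraries and -0.091 within groups. For Mfn1, r was -0.324 (rho = -0.265, permutation adjusted p = 0.280). Pink1 had r of 0.542 (rho = 0.524, permutation adjusted p = 0.0506) over all libraries and 0.539 within groups. The others had r of -0.497 for Bnip3l, 0.295 for Mff and -0.254 for Bnip3 (permutation adjusted p of 0.0767, 0.296 and 0.342). Of all tested genes, 2.97% had a larger r in size than Fis1, 3.22% than Mfn2, 6.98% than Dnm1l, 28.65% than Opa1 and 60.71% than Mfn1.

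**Figure D4:**
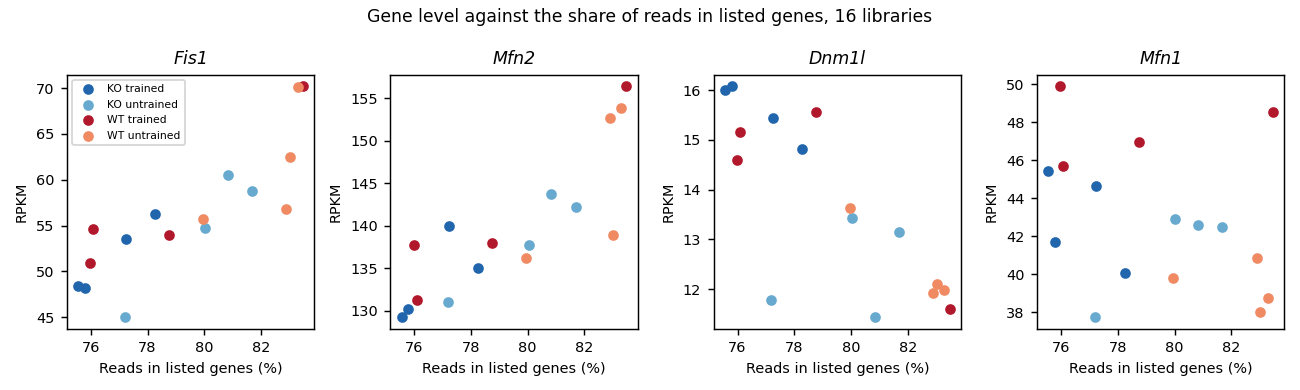
RPKM of Fis1, Mfn2, Dnm1l and Mfn1 against the percentage of a library's reads in listed genes, 1 point per library, coloured by group. Fis1 (r = 0.848) and Mfn2 (r = 0.844) are higher and Dnm1l (r = -0.790) lower where the share is high; Mfn1 follows the share less closely (r = -0.324).

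For each gene the 2 tested genes with the most similar level over the 16 libraries, by Pearson's r of log2 level, were named as a description. Gene models and clones without a proper name, such as those with Gm or Rik symbols, were skipped, so a closer one may exist among them. Closest to Mfn1 were Ank2, a membrane anchor protein (r = 0.947), and Got1, the cytosolic aspartate aminotransferase (r = 0.927). Closest to Opa1 were Jam2, a junction adhesion molecule (r = 0.900), and Atad1, an outer membrane ATPase that extracts misplaced proteins (r = 0.871). Closest to Mfn2 were Ube3b (r = 0.934) and Ap2m1, a clathrin adaptor subunit (r = 0.932). Closest to Dnm1l were Clcn4-2, a chloride transporter (r = 0.936), and Tbc1d8b (r = 0.916). Closest to Fis1 were Ndufa2, a subunit of respiratory complex I (r = 0.950), and Ccdc124 (r = 0.945). Mff had no close neighbour among the genes kept, the nearest being Isca1, an iron-sulphur cluster assembly protein (r = 0.744), and Spcs1 (r = 0.716). For the mitophagy genes the nearest were Plagl2 (r = 0.819) and Tmem230 (r = 0.780) to Bnip3, Ogn (r = 0.8294) and Phip (r = 0.8285) to Bnip3l, and Pithd1 (r = 0.900) and Rprd2 (r = 0.893) to Pink1.

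The wider machinery was read from 4 lists. Of 19 tested genes of fusion, inner membrane proteases and cristae, 0 passed for training in KO or in WT (4 and 3 at an unadjusted limma p under 0.05), and 1 rose over both genotypes. That gene was Ghitm, an inner membrane protein needed for cristae. It stood at 139.8, 138.9, 133.6 and 134.8 RPKM in trained KO mice, against 120.7, 124.1, 118.1 and 116.2 RPKM in untrained KO mice. In WT, Ghitm stood at 127.1, 138.8, 127.0 and 131.5 RPKM after training, against 124.3, 114.5, 118.97 and 120.6 RPKM without it. Trained and untrained mice did not overlap in either genotype. Taken alone, 4.00% of tested genes in KO and 3.76% in WT were higher without overlap. Ghitm was named because it passed, so this is not separate evidence. The difference over both genotypes was 0.16 (SE 0.034, 1.12-fold, limma adjusted p = 0.0412). That call held in 2 of the 16 fits without 1 library, those without WT trained replicate 1 or WT untrained replicate 1, and the adjusted p otherwise reached up to 0.0976. It was lost with the replicate block (limma adjusted p = 0.0780) and with no filter on low values (adjusted p = 0.0544). With the share of listed reads as a covariate the difference was 0.13 (limma adjusted p = 0.177). There 0 of all tested genes passed, so that loss is not particular to Ghitm. The median log2 difference of the list was 0.03 for training in KO and 0.07 in WT, against -0.06 and 0.01 over all tested genes. Others with small p that did not pass were Mtx2, a metaxin of the outer membrane, for training in WT (0.30, limma adjusted p = 0.150), and Yme1l1, a protease that cuts Opa1, for training in KO (0.27, limma adjusted p = 0.262). Oma1, the stress protease that also cuts Opa1, was at -0.17 in trained KO against trained WT mice (limma adjusted p = 0.243).

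Of 23 tested genes of fission, outer membrane regulation and motility, 0 passed in any of the 6 comparisons, with 5 at an unadjusted limma p under 0.05 for training in KO, 3 in WT and 5 for the difference of responses. The list's median was -0.05 for training in KO and 0.01 in WT. The smallest p for the difference of responses were those of Inf2, a formin that helps constrict mitochondria (-0.64), Gdap1, an outer membrane protein (0.61), and Akap1, which anchors protein kinase A at the outer membrane (-0.49). Each had a limma adjusted p of 0.526, and none of the 3 passed. Ppp3cb, a catalytic subunit of calcineurin, the phosphatase that acts on Dnm1l, was at 0.31 in trained KO against trained WT mice (SE 0.073, limma adjusted p = 0.155). Mtfp1, an inner membrane fission protein, was at 0.28 for training in WT (limma adjusted p = 0.169).

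Of 28 tested mitophagy receptors and members of the PINK1 and parkin pathway, 0 passed for training in KO or in WT (5 each at an unadjusted limma p under 0.05) and 1 fell over both genotypes. That gene was Park7, the stress protein DJ-1. It stood at 381.3, 359.2, 338.7 and 378.8 RPKM in trained KO mice, against 415.5, 395.8, 415.8 and 397.0 RPKM in untrained KO mice. In WT, Park7 stood at 414.2, 359.3, 367.1 and 337.8 RPKM after training, against 438.3, 460.0, 472.8 and 420.3 RPKM without it. Trained mice lay below untrained mice in both genotypes. Taken alone, 5.43% of tested genes in KO and 2.62% in WT were lower without overlap. Park7 too was named because it passed. The difference over both genotypes was -0.22 (SE 0.045, limma adjusted p = 0.0392). The call held in 4 of the 16 fits without 1 library, those without WT trained replicate 1, WT untrained replicate 1, KO trained replicate 4 or KO untrained replicate 4, and the adjusted p otherwise reached up to 0.0976. With the share of listed reads as a covariate it was -0.12 (limma adjusted p = 0.297), in the same setting where 0 of all tested genes passed. The call was also lost with the replicate block (limma adjusted p = 0.0677) and with no filter (adjusted p = 0.0602). Sqstm1, the cargo receptor p62, was at -0.22 over both genotypes (limma adjusted p = 0.0755) and did not pass. The median of this list was -0.02 for training in KO and 0.01 in WT.

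Of 35 genes of the autophagy core, 0 passed in any of the 6 comparisons, with 7 at an unadjusted limma p under 0.05 for training in KO, 2 in WT and 8 over both genotypes. Over both genotypes 27 of the 35 had a log2 difference below 0, and the list's median was -0.04 against -0.02 over all tested genes. Among them were Foxo3 (-0.25, limma adjusted p = 0.122) and Tfeb (-0.19, limma adjusted p = 0.144), transcription factors of autophagy and lysosome genes, and Rab7 (-0.24, limma adjusted p = 0.129) of late endosomes. In trained KO against trained WT mice the smallest p were those of Wipi1 (-0.31) and Map1lc3a (-0.36), both with a limma adjusted p of 0.201. These 2 take part in forming the autophagosome.

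Measures of mitochondrial content and fibre type were set beside these results. Of 17 nuclear genes of mitochondrial content, all 17 were above 0 for training in WT, with a median of 0.15 and 0 called (9 at an unadjusted limma p under 0.05), and 11 in KO, with a median of 0.03 and 0 called. For the difference of responses 14 of the 17 were below 0 (median -0.11, 0 called), and also 14 in trained KO against WT mice (median -0.14, 0 called). The median over all tested genes was -0.05 in both of these comparisons. Over both genotypes 1 of them rose, Cycs, the electron carrier cytochrome c (0.25, SE 0.042, limma adjusted p = 0.0137). With the share of listed reads as a covariate it was 0.22 (limma adjusted p = 0.142), a setting in which 0 of all tested genes passed over both genotypes. The summed RPKM of the 17 genes ran from 5441 to 6010 in KO trained, 5065 to 6152 in KO untrained, 6100 to 7014 in WT trained and 5575 to 6329 in WT untrained mice. In KO, Dnm1l (0.33), Bnip3 (0.16), Bnip3l (0.09), Opa1 (0.07) and Mfn1 (0.05) were above the median of the content genes. In WT, Mfn1 (0.28), Dnm1l (0.19) and Opa1 (0.17) were above it, and Bnip3 and Bnip3l below. Mfn2, Mff, Fis1 and Pink1 were below the medians of their genotype in both.

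Slow fibre genes separated trained from untrained WT mice, as Mfn1 and Opa1 did. All 13 slow oxidative genes were above 0 for training in WT (median 0.97, 2 called, Fhl1 and Myh2), and 2 of 13 in KO (median -0.20, 0 called). For the difference of responses all 13 were below 0 (median -1.14, 0 called, 11 at an unadjusted limma p under 0.05). In trained KO against WT mice all 13 were below 0 (median -0.71), with 1 called, Fhl1 (-0.71, limma adjusted p = 0.0224). In untrained KO against WT mice 12 of the 13 were above 0 (median 0.39, 0 called). Their summed RPKM ran from 2275 to 3637 in KO trained, 2268 to 3693 in KO untrained, 3774 to 5066 in WT trained and 2188 to 2884 in WT untrained mice. All 12 fast glycolytic genes were below 0 for training in WT (median -0.26, 1 called, Tpm1), and 11 of 12 in KO (median -0.08, 0 called). Their sums ran from 81600 to 90780 RPKM in KO trained, 90490 to 92870 in KO untrained, 81130 to 89570 in WT trained and 98330 to 108700 in WT untrained mice. Over both genotypes all 12 were below 0 and 3 were called by limma. These were Tpm1 (-0.21, adjusted p = 0.0212), Pygm (-0.23, adjusted p = 0.0323) and Tnnc2 (-0.17, adjusted p = 0.0469). The fast fibre sums of trained WT mice lay below those of untrained WT mice, without overlap. Among trained mice, the slow fibre sums and the mitochondrial content sums were lower in KO than in WT without overlap, as Mfn1 was. The part of fibre type and of mitochondrial content in the Mfn1 and Opa1 differences was not tested.

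Markers of other cells in the muscle were detected in every library. The summed RPKM of 7 tendon markers ran from 89.95 to 200.4 in KO trained, 134.4 to 225.6 in KO untrained, 186.6 to 241.2 in WT trained and 113.0 to 142.2 in WT untrained mice. This sum therefore separated trained from untrained WT mice, as Mfn1 and Opa1 did, and its part in those differences was not tested. For the 7 macrophage markers the sums ran from 38.33 to 95.4 in KO trained, 48.39 to 84.13 in KO untrained, 48.81 to 65.86 in WT trained and 40.91 to 76.81 in WT untrained mice. For the 7 endothelial markers the range was 68.04 to 73.99 in KO trained, 70.97 to 82.01 in KO untrained, 74.98 to 92.59 in WT trained and 70.39 to 88.21 in WT untrained mice. The endothelial sums of trained KO mice thus lay below those of trained WT mice, as Mfn1 did, and their part in the Mfn1 difference was not tested. The 7 adipocyte markers summed to 319.6 to 589.4 RPKM in KO trained, 394.0 to 671.0 in KO untrained, 383.5 to 487.1 in WT trained and 297.2 to 452.3 in WT untrained mice. The 6 Schwann cell markers summed to 39.99 to 58.09 RPKM in KO trained, 59.16 to 135.7 in KO untrained, 30.68 to 90.75 in WT trained and 44.97 to 58.14 in WT untrained mice. The Schwann cell sums of trained KO mice lay below those of untrained KO mice, without overlap. Dnm1l separated the same groups in the opposite direction, and the part of the Schwann cell sums was not tested. Of the tested markers in these 5 lists, 0 passed for training in KO or in WT by limma (1 and 6 at an unadjusted p under 0.05).

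On mm10, Mfn1 lies at chr3:32529482-32579225 (+), Mfn2 at chr4:147873595-147904819 (-), Opa1 at chr16:29579334-29654602 (+) and Dnm1l at chr16:16312228-16359031 (-). Mff lies at chr1:82724918-82752389 (+), Fis1 at chr5:136953275-136966234 (+), Bnip3 at chr7:138890836-138909506 (-), Bnip3l at chr14:66985240-67008877 (-) and Pink1 at chr4:138313410-138326296 (-). In GENCODE M21, exons of Dnm1l, Mff and Bnip3 overlap a non-coding gene on the other strand, and whether strand was used in counting is not given. Pink1 overlaps 2 microRNA genes on its own strand. No such overlap was found for Mfn1, Mfn2, Opa1, Fis1 and Bnip3l.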

How the data were processed

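Gastrocnemius RNA was sequenced from TruSeq Stranded mRNA libraries, per the labels' protocols. Per the file headers, reads were trimmed and the authors deposited RPKM. Per the submitters' processing notes, mm10 was used. How reads were aligned and counted, on which annotation and with what use of strand, is not given in the sources used here.

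Within a gene, RPKM steps gave gene lengths and library totals, and 100% of values above 0 came out whole within 0.01 read. Each length was the smallest that made the gene's values whole, so this share is not an independent check. For genes with few reads, the reads given are the fewest that fit. These reads served for depth (median total 17780533) and for a voom alternative. The 16 columns were assigned through the mouse identifiers in the labels.

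On log2(RPKM + 0.1), limma 3.58.1 (trend, robust, statmod 1.5.0, R 4.3.3) fitted 1 mean per group over 16 libraries, for the 10171 genes that reached 1 RPKM in at least 4 libraries. Tests were two-sided, with Benjamini-Hochberg adjustment over these genes in each contrast and a threshold of 0.05. Fold changes are on that scale and understate those of low genes. Single genes between 2 groups were also tested by exact permutation. Pairs of genes and relations with the share of listed reads used 100000 permutations (Python 3.11.15, SciPy 1.17.1, NumPy 2.4.6, pandas 2.3.3, matplotlib 3.10.9). Libraries were permuted within groups for pairs with group means removed, and across groups otherwise. The fit and the permutation code were tested on simulated data.

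The genes, the lists and the motifs were chosen with earlier results of these data known. The genes named were all 9 members, every list gene past the threshold, and among the 3 smallest p of a list in each comparison those printed here. For each member the 2 most alike were also named, with gene models and clones that lack a proper name skipped. Alternatives were other pseudocounts (0.01, 1), no filter or 5 RPKM, quantile normalization, rescaling to the sum over listed genes, only the groups compared, replicate number as a block, library weights, voom, exact permutation, each library left out in turn and, chosen after seeing the data, the share of listed reads as a covariate. Intervals and counting SDs cover sampling only.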

Additional observations from a re-analysis of the deposited data

Results flagged for a closer look

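In 36 sets of 4 libraries (9 genes in 4 groups), a library was compared with the other 3 of its group, and chance alone flags about 1 set in 20. Mfn1 in KO untrained mice had 1 low library, replicate 4 at 37.7 RPKM against 42.5, 42.9 and 42.6 RPKM, a gap of 0.915 of the group's range. Without it the Mfn1 difference with training in KO was 0.01 and the difference of responses -0.27, neither called by limma. Dnm1l in WT untrained mice had 1 high library, replicate 1 at 13.6 RPKM, a gap of 0.903 of the range. Bnip3 in WT trained mice had 1 high library, replicate 1 at 117.7 RPKM, a gap of 0.858 of the range.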

How the results depend on the processing

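Among the 9 genes, 0 were called for training in WT, and the count was 1 with a pseudocount of 1, a filter at 5 RPKM, quantile normalization, voom or the share of listed reads as a covariate, and 2 with rescaling to the sum over listed genes or library weights. It was 0 to 2 when 1 library was left out, 2 without WT trained replicate 1. For training in KO the count was 0 to 1 when 1 library was left out, and 1 without WT trained replicate 1. For training over both genotypes it was 2 with a filter at 5 RPKM, quantile normalization, library weights or voom, 3 with rescaling, and 0 to 3 when 1 library was left out, 3 without WT trained replicate 1. Counts over all genes moved as well. For training in WT, 19 genes became 3 with no filter, 35 with only the groups compared, 39 with a pseudocount of 1, 58 with a filter at 5 RPKM, 78 with the covariate, 134 by voom, 155 with quantile normalization, 329 with library weights and 395 with rescaling, and 0 to 272 with 1 library left out. For training in KO, 0 became 1 with no filter, 97 with library weights and 0 to 106 with 1 library left out. Over both genotypes, 79 became 0 with the covariate, 27 with no filter, 157 with a filter at 5 RPKM, 252 with quantile normalization, 269 by voom, 484 with rescaling, 1152 with library weights and 18 to 1044 with 1 library left out. The fewest and the most genes are those without WT trained replicate 4 (0 and 18, and 0 without WT trained or untrained replicate 3 in WT) and without WT trained replicate 1. Of 36 pairs of genes, 0 passed with group means removed and 2 with them kept. Replicate numbers did not pair the libraries (24 same-numbered pairs, r from -0.182 to 0.442, median 0.018, 5 above 0.1; 6 of 16 libraries correlated best with their own number), and the replicate block gave 0 of the 9 in each comparison, with 16 genes called for training in WT against 19 without it and 31 against 79 over both genotypes.

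Of 1554 log2 differences under 28 alternatives, 95 had the opposite sign, none with an adjusted p under 0.05, and the largest of these was 0.15 in size. The 1554 include those of Ghitm, Park7 and Cycs over both genotypes. They also include many that could not change, such as a WT difference when a KO library was left out. The share of 95 in 1554 therefore understates how often signs turned where they could. With library weights, the sign turned for the difference of responses Mfn2 at 0.0245 and Bnip3l at 0.0505. It also turned for trained KO against WT Pink1 at 0.0516. With quantile normalization, the sign turned for training in KO Mfn2 at 0.0237 and Pink1 at 0.0299, for training in WT Pink1 at 0.018, for the difference of responses Mfn2 at 0.0645 and Bnip3l at 0.0492. It also turned for untrained KO against WT Bnip3 at 0.0517 and Pink1 at 0.0407, for trained KO against WT Mfn2 at 0.0407, Opa1 at 0.0633, Mff at 0.0525 and Pink1 at 0.0526, for training over both genotypes Mff at 0.0292 and Pink1 at 0.0239. With rescaling to the sum over listed genes, the sign turned for training in KO Mfn2 at 0.0144 and Pink1 at 0.0428, for training in WT Mfn2 at 0.0434, Mff at 0.049 and Pink1 at 0.0397, for the difference of responses Fis1 at -0.0043. It also turned for untrained KO against WT Mfn2 at 0.0168, Bnip3 at 0.0792 and Pink1 at 0.0253, for trained KO against WT Opa1 at 0.0554, Mff at 0.0336 and Pink1 at 0.0283, for training over both genotypes Mfn2 at 0.0289, Mff at 0.067 and Pink1 at 0.0413. With the share of listed reads as a covariate, the sign turned for training in KO Mfn2 at 0.0453, Fis1 at 0.13 and Pink1 at 0.0714, for training in WT Mfn2 at 0.0664, Fis1 at 0.15 and Pink1 at 0.06, for the difference of responses Fis1 at -0.0138. It also turned for untrained KO against WT Mfn2 at 0.0044, Dnm1l at -0.0786, Bnip3 at 0.0163 and Pink1 at 0.0112, for trained KO against WT Pink1 at 0.0226, for training over both genotypes Mfn2 at 0.0558, Fis1 at 0.14 and Pink1 at 0.0657. By voom, the sign turned for training in KO Pink1 at 0.0208, for the difference of responses Mfn2 at 0.0428 and Bnip3l at 0.0446. It also turned for trained KO against WT Opa1 at 0.0429, Mff at 0.0203 and Pink1 at 0.0158, for training over both genotypes Mff at 0.0093. Leaving out 1 library also turned signs. The ranges were -0.0076 to 0.0384 for Mff and -0.0481 to 0.0169 for Pink1 in training in KO. The range was -0.14 to 0.0147 for Pink1 in training in WT. The ranges were -0.0388 to 0.0454 for Mfn2, -0.0723 to 0.12 for Fis1, -0.0529 to 0.0448 for Bnip3l and -0.0395 to 0.12 for Pink1 in the difference of responses. The ranges were -0.0341 to 0.0487 for Dnm1l and -0.0751 to 0.0489 for Bnip3 in untrained KO against WT. The ranges were -0.027 to 0.0282 for Opa1, -0.0036 to 0.0876 for Bnip3l and -0.10 to 0.0607 for Pink1 in trained KO against WT.

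Depth was 727 reads or more for each of the 9 genes in each library, and the counting SD of a log2 level was 0.050 at most. With 4 mice a group, the 95% intervals of the training differences reached 0.10 on the log2 scale or more to either side, and a p above the threshold does not show that levels were alike. The labels name no sequencing batch. In the file headers the sample numbers run in blocks by group, and the mouse identifiers of WT and KO form separate ranges. What these numbers stand for is not given, and an effect of order could not be told apart from the groups.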
